A study of Rattus norvegicus with 5 samples.

Results

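The comparison set the parotid gland of 1 rat killed 30 min after an injection of isoproterenol against the glands of 2 rats injected with saline. These are 3 of the 5 samples of the series. All were male Sprague-Dawley rats, an outbred strain, aged 2 to 3 months, and the injections were intraperitoneal. The labels give the isoproterenol dose as 20 mg per g body weight, a unit that is in doubt. Neither the interval between saline injection and death, nor the time of day, nor the slide of each array was given in the sources used here. Total RNA of each gland was amplified, labelled with biotin and hybridised to 1 Illumina bead array of 22517 probes.

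Probes entered the comparison if at least 1 of the 3 arrays gave them a detection p-value under 0.01. This left 10274 probes, of which 7471 carried a gene symbol and named 7337 genes. The detection p-value is the share of negative control beads that were at least as bright as the probe, and a probe at 0.01 or more is called not above background. Levels below are background-corrected, quantile-normalized log2 intensities on a scale that ended at 15.32, on which a difference of 1 is 2-fold. A difference is the 30 min level minus the mean of both controls, and its standard error (SE) comes from a limma fit.

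The 3 libraries resembled each other in overall form. The number of probes above background ran from 9196 to 9459 per array. Pearson's correlation over the tested probes was 0.9758 between the controls, 0.9505 between 30 min and control 1 and 0.966 between 30 min and control 2. These correlations are across probes, which are not independent replicates. The tissue label was borne out by salivary genes, which stood near the top of the scale on all 3 arrays. Amy1, encoding salivary amylase, stood at 15.05 and 15.09 in the controls against 15.05 at 30 min, and Bpifa2, encoding the parotid secretory protein, at 15.07, 15.14 and 15.07. Skeletal muscle genes set the arrays apart. Control 1 and the 30 min array held them at high levels and control 2 did not. Of 7337 tested genes, each read by its brightest probe, 108 (1.47%) were at least 2-fold lower in control 2 than in control 1, and 24 of the 30 tested skeletal muscle markers were among them.

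Isoproterenol is an agonist of beta-adrenergic receptors. In parotid acinar cells these receptors raise cyclic AMP (cAMP), which activates protein kinase A and triggers the release of amylase and other proteins from secretory granules. Protein kinase A also phosphorylates the transcription factor CREB, and CREB and the MAP kinase pathway switch on immediate early genes, which are transcribed without new protein synthesis. Many immediate early genes encode transcription factors or enzymes that end the signal.

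With 1 treated rat, no probe passed the limma test. Of 10274 probes, 0 had an adjusted p under 0.05 (0%) in the limma fit, and the smallest adjusted p was 0.108, although 2063 (20.1%) had an unadjusted p under 0.05, 990 (9.64%) of them higher and 1073 (10.4%) lower. The spread in that fit comes from the pair of controls and a prior over all probes, so the lone 30 min rat is assumed to vary as the controls do. Results are therefore described by size. The main rule counted a gene only when the 30 min level lay at least 2-fold from the nearer of the controls. By that rule 113 probes (1.1%) lay above both controls and 127 (1.24%) below both, while 19 (0.185%) lay at least 4-fold above and 4 (0.0389%) as far below. With no background correction these counts were 63 above and 36 below, and with the authors' processed values 65 and 41, so the excess of lower over higher probes turned. The controls were themselves at least 2-fold apart at 234 probes (2.28%), control 2 being the higher at 100 (0.973%) and the lower at 134 (1.3%). By any amount, 2665 genes (36.3%) lay above both controls and 3423 (46.7%) below. List counts that are set against these shares below are also by any amount. Under the 2-fold rule, 80 of 7337 named genes (1.09%) lay above and 89 (1.21%) below. Just inside the limit lay Rpe65, 1.00 above the nearer control, and just outside it lay Atf3, at 0.996. Of the 113 probes above both controls, 13 were not above background in either control, and of the 127 below, 15 were not above background at 30 min. In 93 (82.3%) of the 113 higher probes control 2 also exceeded control 1, which held for 52% of all tested probes. In 88 (69.3%) of the 127 lower probes control 2 was the lower control, which held for 47.8%. Set against control 1 alone, 729 probes lay at least 2-fold above and 450 below at 30 min, and against control 2 alone 228 and 189, so the 30 min array lay nearer to control 2 than to control 1.

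**Figure D1:**
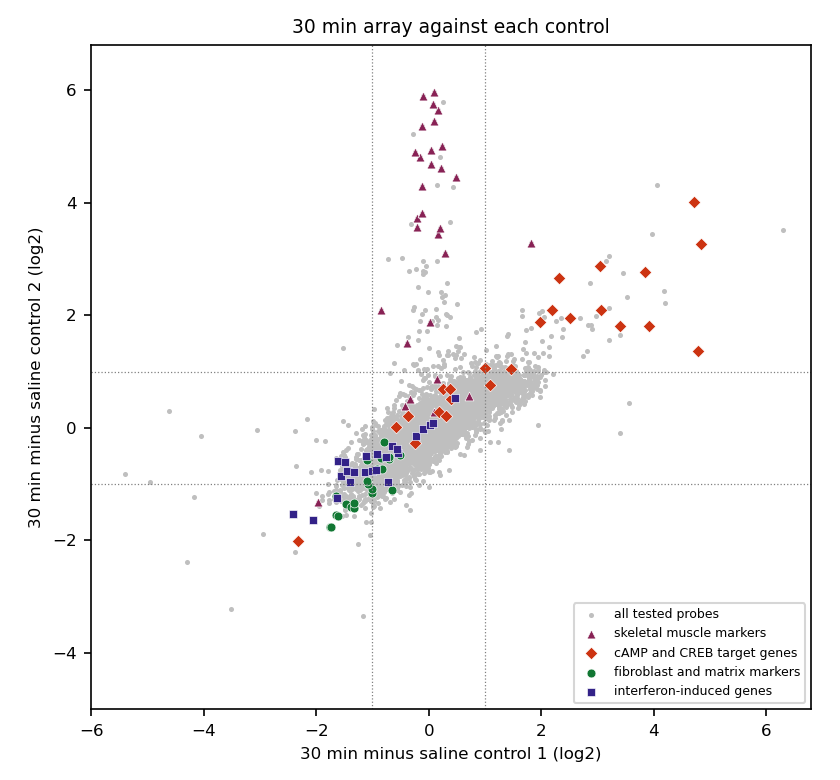
The 30 min level minus control 1 (x axis) against the 30 min level minus control 2 (y axis), both in log2, for all 10274 tested probes. Dotted lines mark 2-fold. The cAMP and CREB targets reach the upper right, the matrix and interferon genes the lower left, and the muscle markers stand on a vertical band near 0 on the x axis.

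**Figure D2:**
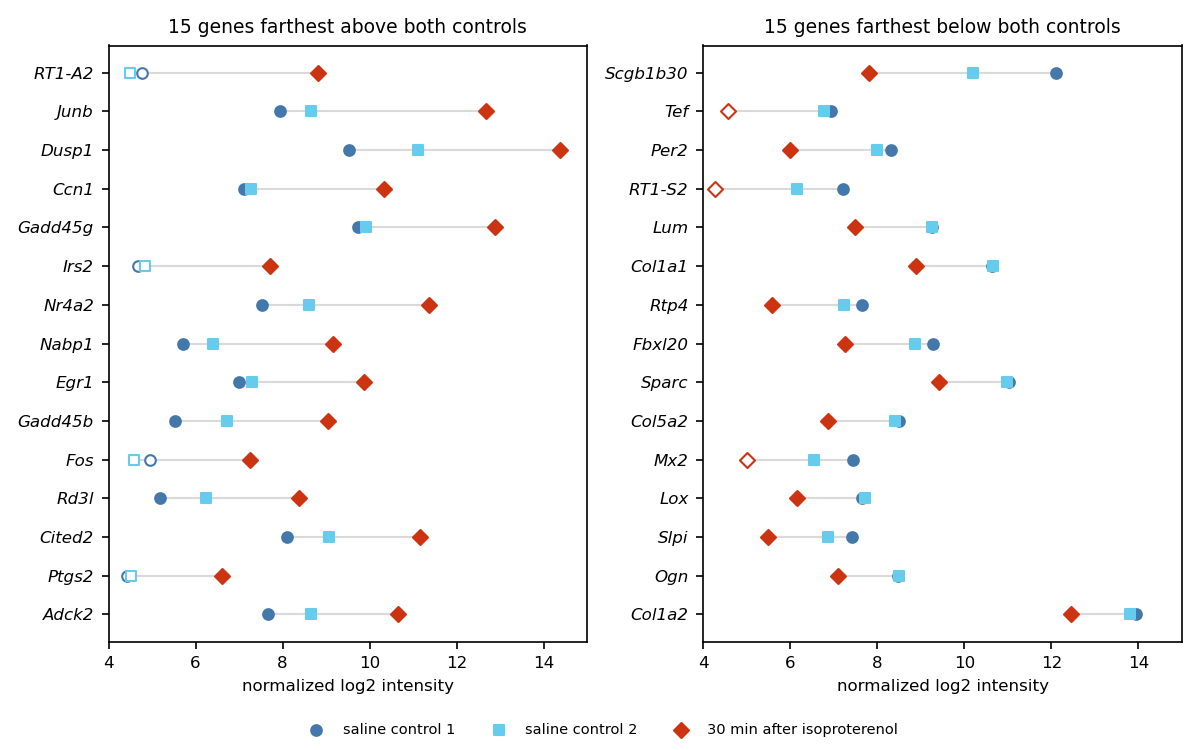
Normalized log2 intensity (x axis) on each of the 3 arrays for the 15 named genes farthest above (left) and the 15 farthest below (right) both controls. Each symbol is 1 rat, and open symbols are not above background. The red diamonds of the 30 min rat lie outside the range of the controls by construction, from 8.81 for RT1-A2 to 14.37 for Dusp1 among the first 3 genes on the left.

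The promoters of 4 early genes that lay at least 1.98 above the nearer control are shown as examples, since CREB binds the cAMP response element. The sequences are the 250 bases before the annotated start, 5′ to 3′, from RefSeq (build GRCr8). They cover chr10:17184603-17184852 on the plus strand (Dusp1), chr19:40399123-40399372 on the plus strand (Ier2), chr19:40080876-40081125 on the plus strand (Junb) and chr3:62104888-62105137 on the minus strand (Nr4a2). Capitals mark TGACG and its reverse complement CGTCA, the core of the element. The pair overlaps by 2 bases in TGACGTCA, the full element, which reads the same on both strands.
Dusp1: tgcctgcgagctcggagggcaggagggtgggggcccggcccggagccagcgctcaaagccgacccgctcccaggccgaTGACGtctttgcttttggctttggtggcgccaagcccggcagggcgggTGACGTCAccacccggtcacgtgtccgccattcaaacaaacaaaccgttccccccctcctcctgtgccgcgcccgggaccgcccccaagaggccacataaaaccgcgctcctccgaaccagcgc
Ier2: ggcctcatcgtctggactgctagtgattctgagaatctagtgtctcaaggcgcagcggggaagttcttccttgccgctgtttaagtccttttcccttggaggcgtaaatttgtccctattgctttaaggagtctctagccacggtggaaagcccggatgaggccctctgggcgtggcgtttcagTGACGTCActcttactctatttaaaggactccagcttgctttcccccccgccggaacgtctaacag
Junb: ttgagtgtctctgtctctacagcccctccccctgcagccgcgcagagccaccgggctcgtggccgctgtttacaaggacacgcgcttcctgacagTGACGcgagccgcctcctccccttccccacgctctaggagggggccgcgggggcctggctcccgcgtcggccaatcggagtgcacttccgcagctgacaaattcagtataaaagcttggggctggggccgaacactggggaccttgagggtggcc
Nr4a2: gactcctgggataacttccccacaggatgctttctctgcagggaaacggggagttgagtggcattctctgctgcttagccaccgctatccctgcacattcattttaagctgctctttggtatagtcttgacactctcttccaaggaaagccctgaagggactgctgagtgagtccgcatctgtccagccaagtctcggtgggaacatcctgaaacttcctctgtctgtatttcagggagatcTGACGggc

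The full element lies 124 to 117 bases before the start of Dusp1 and 66 to 59 bases before that of Ier2. Junb has a lone core 155 to 151 bases before its start, and Nr4a2 has one 8 to 4 bases before. In windows from 250 bases before to 50 after the start, searched on both strands, TGACGTCA was present in 1.91% of 27457 promoters. It was present in 3.02% of the 6127 promoters that matched a tested gene. Of the 67 matched promoters of genes at least 2-fold above both controls it was in 8 (11.9%), and in 0 of 70 for genes at least 2-fold below. The 8 were those of Ch25h, Dusp1, Golph3, Ier2, Plekhf1, Ppp1r15a, Slc25a25 and Srrd. The core TGACG, within a full element or not, was in 32.2% of tested promoters, in 33 of the 67 (49.3%) and in 15 of the 70 (21.4%). It was absent from those of Gadd45g, Cited2, Nabp1, Adck2 and Ptgs2, which also lay at least 1.98 above the nearer control. The CArG box, the site of serum response factor, was in 1.16% of tested promoters and in 4 of the 67 (5.97%), those of Dusp5, Egr1, Myl3 and Zfp36. Myl3 encodes a slow muscle myosin light chain, and skeletal muscle genes differed between these arrays. Myl3 and the genes of the first group other than Dusp1, Ier2 and Ppp1r15a were named after the search. A match is a string of letters, not a bound site.

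Transcription factor genes of the AP-1, EGR, KLF and NR4A families included several of the levels farthest above both controls, beside members that differed little. AP-1 is a dimer of Fos and Jun proteins. Junb, which encodes one of the Jun proteins, stood at 7.95 and 8.65 in the controls against 12.67 at 30 min. The difference of 4.37 ± 0.34 (SE), or 20.7-fold, was several times the gap between the controls, and its adjusted p was 0.112 with limma. Fos stood at 4.94 and 4.58 in the controls, not above background in either, and at 7.25 at 30 min, at least 4.57-fold higher. The bound sets the 30 min level against the dimmest probes above background on each control array. Jun differed by -0.19, from 7.48 and 7.84 to 7.47. Of 13 AP-1 names listed, 8 were on the array and 7 were tested, 2 of them only through the 30 min array. Of these 7, 2 lay at least 2-fold above both controls, against 1.09% of all tested genes. Their median difference was 0.37, against -0.05 for all tested genes, and it was -0.19 among members above background on at least 2 arrays.

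Egr1, the zinc finger factor gene that follows MAP kinase signals, stood at 7.004 and 7.29 in the controls against 9.87 at 30 min, a difference of 2.72 ± 0.23 (SE), or 6.61-fold. Klf4, encoding a Krüppel-like factor, stood at 7.50, 8.24 and 10.20, which is 5.02-fold above the control mean. Zfp36 encodes a protein that speeds the decay of mRNAs with AU-rich ends, and it stood at 7.67 and 7.42 and then at 9.06. In all 3 genes the 30 min level was clear of both controls by more than the controls differed. Egr2 differed by 0.39, Klf2 by 0.64 (5.36, 5.27 and 5.96) and Klf10 by -0.65. Egr1, Klf4 and Zfp36 were the only ones of 14 tested members at least 2-fold above both controls, and none lay as far below. Over all tested genes the shares were 1.09% above and 1.21% below. The median of the list was 0.21.

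Of the NR4A orphan nuclear receptor genes, which are early targets of CREB, Nr4a2 stood at 7.52 and 8.60 in the controls against 11.36 at 30 min, 9.87-fold above the control mean. Nr4a3 stood at 6.10 and 9.52 in the controls against 10.89 at 30 min. Its controls thus lay farther apart than control 2 lay from the 30 min rat, and its difference of 3.07 had an SE of 1.38. Nr4a1 was above background only in control 1 (5.37) and read 4.80 in control 2 and 5.00 at 30 min. Among other early regulators, Cited2, encoding a partner of the coactivator CBP, stood at 8.11 and 9.07 and then at 11.17. Ier2, an immediate early gene with little spread between the controls, stood at 7.94, 8.02 and 9.99, or 4.05-fold higher. Nabp1, a gene of the repair of DNA breaks, stood at 5.71, 6.40 and 9.16. Ier3 was 2.36-fold higher, and Myc differed by -0.92, from 9.08 and 8.93 to 8.09. Of the 20 tested members of this list, 7 lay at least 2-fold above both controls and 0 as far below, and the median was 0.48. The shares over all tested genes were 1.09% above and 1.21% below.

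Among the 33 lists, known target genes of cAMP and CREB had the largest share of tested members at least 2-fold above both controls. Over members on the array the counts were 13 of 31, against 10 of 23 for the early effector genes described below. The first rank thus depended on the filter, and the lists were chosen with earlier results of these data known. Of 24 tested cAMP and CREB targets, 13 lay at least 2-fold above both controls, against 1.09% of all tested genes, and 1 (Per2) lay as far below. The list had 31 members on the array, and 5 of the 24 were tested only through the 30 min array, so these counts and the median of 1.59 include genes that had to be high there. Without the filter on dim probes the median was 0.53. The list shares genes with others, among them Junb, Fos, Nr4a2, Nr4a3, Cited2 and Dusp1 with the lists beside it. Per2 and Nfil3 are also members of the clock list below, so the counts of the lists overlap.

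Crem, which encodes a cAMP-responsive activator and its own repressor ICER, stood at 5.45 and 7.56 in the controls against 9.36 at 30 min. Its controls differed by 2.11, and the dimmer of its probes read 4.56 (not above background), 5.71 and 7.47. Sik1, encoding a kinase that keeps CREB coactivators out of the nucleus, stood at 7.05, 7.59 and 9.55, or 4.69-fold higher. Rgs2, encoding a regulator that speeds the shut-off of G proteins, stood at 9.82 and 9.92 in the controls against 11.79 at 30 min. That difference of 1.92 ± 0.21 (SE) was far wider than the gap between the controls. Nfil3, a basic leucine zipper repressor gene, stood at 7.53, 9.12 and 10.93, a 6.07-fold difference over controls that lay 1.59 apart. Irs2, encoding the insulin receptor substrate, stood at 4.67 and 4.83, not above background in the controls, and at 7.71 at 30 min, at least 6.29-fold higher. Ptgs2, encoding the inducible cyclooxygenase, read 4.42 and 4.52, also not above background, and then 6.62, at least 2.95-fold higher. Other classical targets lay closer to the controls. Pde4d differed by 0.23, Pde4b by 0.46, Odc1, encoding ornithine decarboxylase, by 0.26 and Ppargc1a by 0.47. Pck1 stood at 5.89 and 6.22 and then at 6.98, a difference of 0.93.

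**Figure D3:**
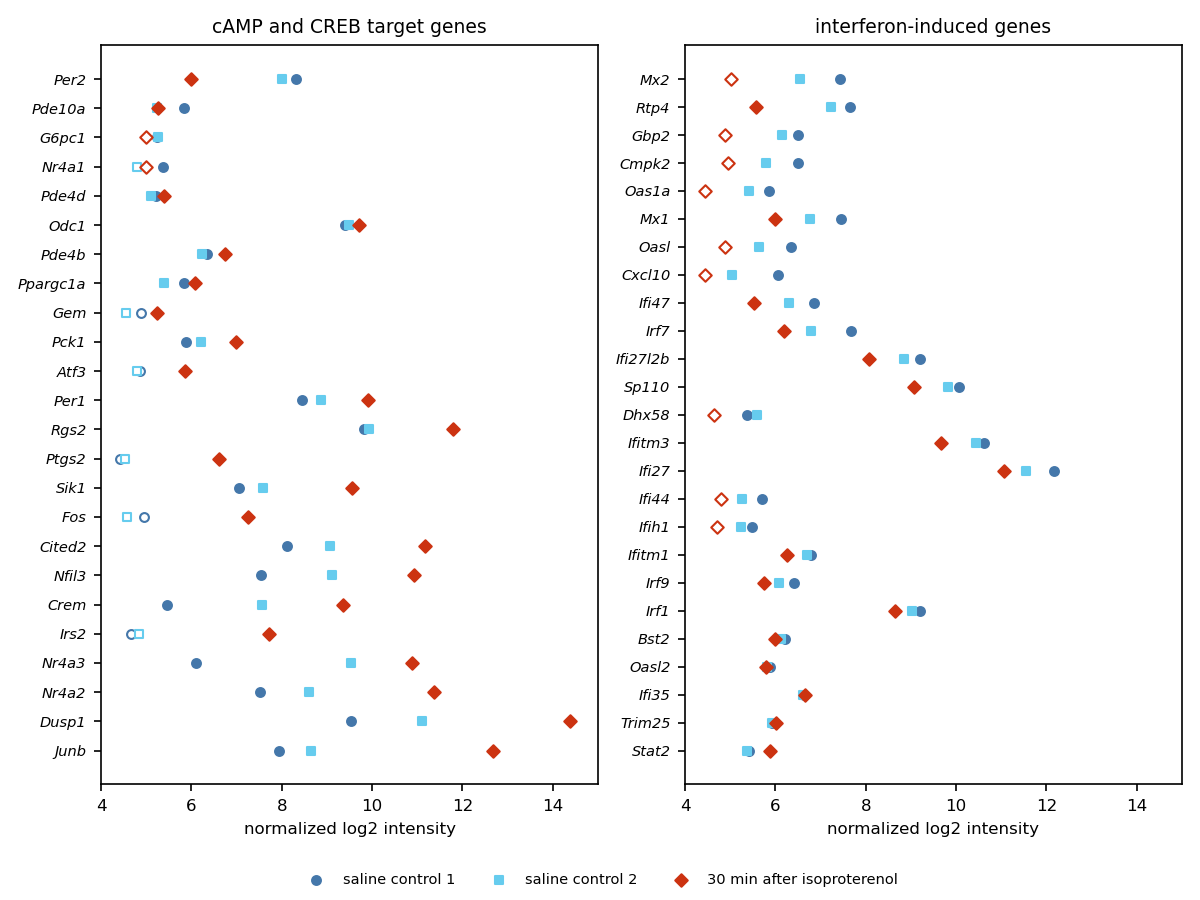
Normalized log2 intensity (x axis) of the tested cAMP and CREB target genes (left) and interferon-induced genes (right) on the 3 arrays, ordered by the difference between 30 min and the control mean. Open symbols are not above background. On the left 13 of 24 red diamonds lie at least 2-fold to the right of both controls, and on the right 22 of 25 lie to the left of both.

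The genes whose products damp the MAP kinase pathway ranged from Dusp1, far above both controls, to members on either side of them. Dusp1, encoding the phosphatase that removes phosphate from MAP kinases, stood at 9.53 and 11.10 in the controls against 14.37 at 30 min. The difference was 4.06 ± 0.66 (SE), or 16.6-fold, although the controls themselves lay 1.57 apart. Dusp5, a nuclear phosphatase gene for ERK, stood at 5.79, 7.55 and 9.19. Dusp8 stood at 5.10, 5.16 and 6.34 by the brighter of its probes, and its other probe read 4.72 and 4.69, not above background, and then 5.17. These 3 of 15 tested members lay at least 2-fold above both controls, against 1.09% of all tested genes. Dusp6 differed by 0.30, Spry2 by 0.51, Spred2 by 0.97 and Errfi1 by 0.59. The median of the list was 0.30, and it was -0.04 without the filter on dim probes.

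Early effector genes encode enzymes, matrix proteins and stress proteins in place of transcription factors. Of 20 tested, 10 lay at least 2-fold above both controls, against 1.09% of all tested genes, and 0 as far below, against 1.21%. The median was 0.94, and 2 members were tested only through the 30 min array. Ccn1, encoding a secreted matrix protein and a target of serum response factor, stood at 7.12 and 7.26 in the controls against 10.32 at 30 min, a difference of 3.12 ± 0.21 (SE) or 8.72-fold. Gadd45g, a growth arrest and DNA damage gene, stood at 9.73, 9.91 and 12.88, or 8.36-fold higher. In both genes the controls nearly coincided, and both had an adjusted p of 0.108 with limma. Gadd45b, of the same family, stood at 5.53, 6.73 and 9.05, while Gadd45a differed by 0.44. Pim3, a serine kinase gene, stood at 9.90, 10.43 and 12.06. Siah2, a ubiquitin ligase gene, was 3.07-fold higher, Sgk1, a kinase gene that regulates ion transport, 2.71-fold and Ptp4a1, a phosphatase gene, 4.04-fold. Ccn2, a relative of Ccn1, stood at 10.10, 9.50 and 9.49, and Arc differed by 0.62. Ccn1 read 9.07 at 10 min and 8.01 at 60 min, and Ptgs2 read 4.55 and 4.99, not above background at either time, each in 1 rat. The comparisons at those times share the same controls.

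Other genes far above both controls included Rd3l, at 5.18, 6.23 and 8.37, and Adck2, a kinase-like gene of mitochondria, at 7.66, 8.66 and 10.64. Among growth factor, cytokine and receptor genes, Cxcl1, a neutrophil chemokine gene, was 2.63-fold higher and Gdf15, a stress cytokine gene, 2.52-fold. They were the 2 of 12 tested members at least 2-fold above both controls, against 1.09% of all tested genes. Tgfa, encoding a ligand of the EGF receptor, differed by 0.55 and Csf1, encoding a macrophage growth factor, by -0.67. Of 19 tested amino acid transporter genes, 1 lay at least 2-fold above both controls, against the same 1.09%. It was Slc7a5, encoding the light chain of a large neutral amino acid transporter, at 5.56, 6.63 and 8.45. Its partner Slc3a2, named after its value was seen, differed by 0.48, from 12.49 and 12.57 to 13.01. Of 8 tested NF-kB pathway genes, 0 lay above both controls by any amount and 4 below, against 36.3% and 46.7% of all tested genes. Nfkbia, encoding the inhibitor that NF-kB itself induces, stood at 10.60, 10.38 and 10.50.

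Of 18 tested receptors and enzymes of the beta-adrenergic pathway, 0 lay at least 2-fold from both controls in either direction, which at 1.09% above and 1.21% below over all genes says little about the pathway. The median difference was 0.09. Prkar1a, a regulatory subunit gene of protein kinase A, differed by 0.63, and the catalytic subunit genes Prkaca and Prkacb by -0.13 and -0.27. The CREB gene Creb1 stood at 5.13 and 5.88 in the controls against 5.58 at 30 min, between them, and its dimmer probe also lay between them. The phosphodiesterase genes Pde4a and Pde3b differed by 0.08 and 0.13. Adcy3, an adenylyl cyclase gene, stood at 5.22 and 5.27 and was not above background at 30 min (4.56). Adrb1, encoding the main beta receptor of the gland, was on the array but not above background on any of the 3 arrays.

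**Figure D4:**
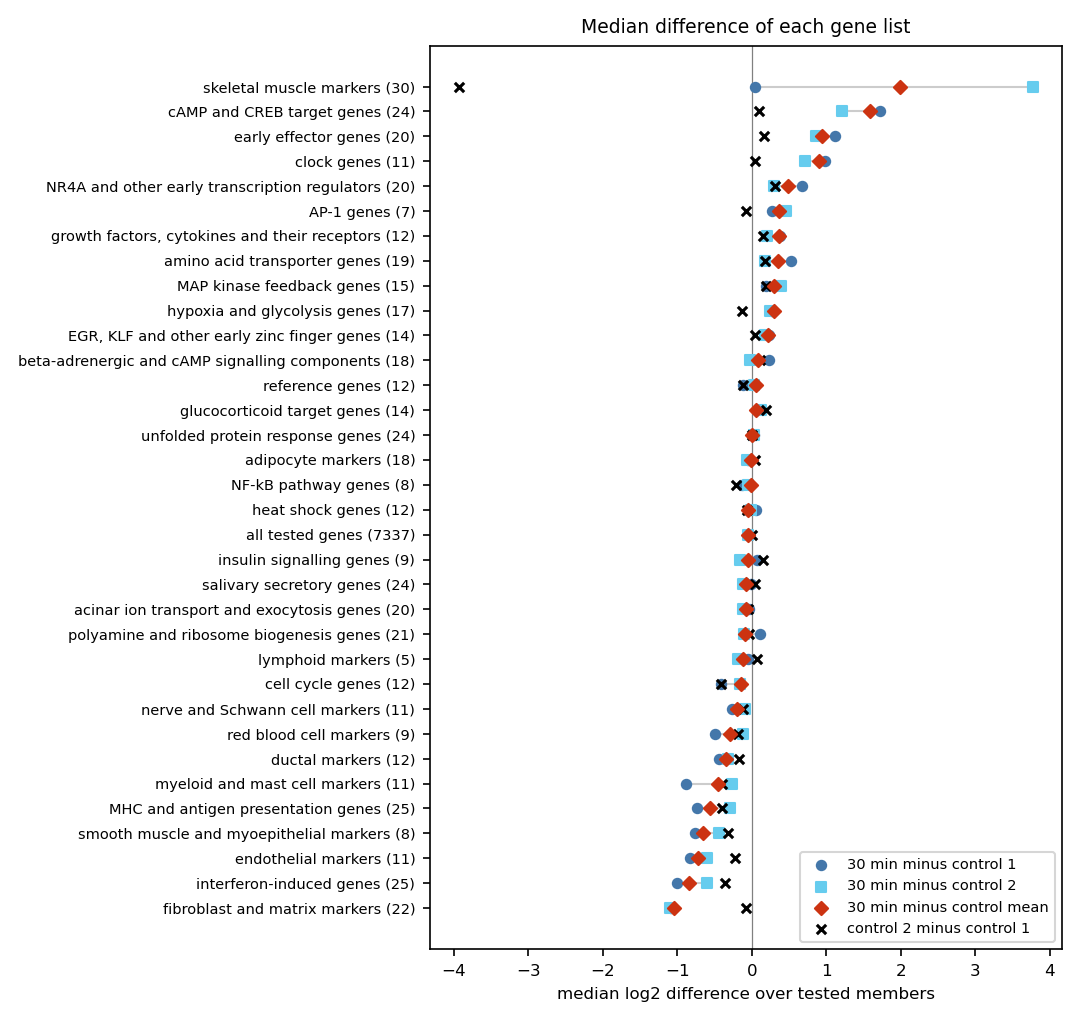
Median log2 difference (x axis) over the tested members of each gene list, with their number in brackets, for 30 min against control 1, control 2 and the control mean, and for control 2 against control 1 (crosses). The cAMP and CREB targets lie farthest right among lists whose cross is near 0, the fibroblast and matrix markers farthest left, and the skeletal muscle list spreads from 0.04 to 3.78.

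Clock genes lay on both sides of the controls. Of 11 tested members, 3 (Per1, Nfil3 and Bmal1) lay at least 2-fold above both controls and 2 (Per2 and Tef) as far below, against 1.09% and 1.21% of all tested genes. Bmal1 and Npas2 were tested only through the 30 min array, so Bmal1 had to be high there. Per1 and Per2, which encode repressors of the clock, lay on opposite sides. Per1 stood at 8.45 and 8.87 in the controls against 9.91 at 30 min. Per2 stood at 8.32, 8.003 and 5.99, or 4.49-fold lower. Bmal1, encoding the clock activator, was not above background in the controls (4.87 and 4.91) and stood at 6.69 at 30 min, at least 3.11-fold higher. Tef, an output factor gene, stood at 6.95 and 6.78 and was not above background at 30 min (4.57), at least 3.44-fold lower. Nr1d1, encoding the repressor REV-ERB alpha, stood at 9.46, 9.86 and 8.48. At 10 min Per1 read 6.87, Per2 6.33 and Bmal1 6.41, and at 60 min 11.09, 8.95 and 5.07, the last not above background. The time of day at which each rat was killed was not given, and its part was not tested.

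Antigen presentation and interferon genes lay mostly below both controls, with 1 gene far above. RT1-A2, annotated to a class I histocompatibility gene, read 4.76 and 4.50 in the controls, not above background, and 8.81 at 30 min, at least 13.5-fold higher (adjusted p = 0.108 with limma). It read 9.18 at 10 min and 4.60 at 60 min, so the rats at 10 and 30 min were high and the other 3 were dim. RT1-S2, of the same family, stood at 7.21 and 6.15 in the controls and was not above background at 30 min (4.27), at least 3.03-fold lower. It read 6.32 at 10 min and 6.83 at 60 min. RT1 genes are close relatives that vary between rats, and a probe may read several of them or only some alleles, so both values are uncertain as gene levels. B2m, encoding the light chain shared by class I molecules, stood at 13.74 and 13.04 in the controls against 12.17 at 30 min. Of 25 tested antigen presentation genes, 19 lay below both controls by some amount, against 46.7% of all tested genes, but only RT1-S2 by at least 2-fold. The median was -0.56, and the median of control 2 minus control 1 was -0.41.

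Of 25 tested interferon-induced genes, 22 lay below both controls, against 46.7% of all tested genes, and the median was -0.84. By at least 2-fold, 3 of the 25 (Mx2, Rtp4 and Gbp2) lay below both, against 1.21% of all tested genes. Mx2, an antiviral GTPase gene, stood at 7.43 and 6.55 and was not above background at 30 min (5.01), at least 3.76-fold lower. Rtp4, an interferon-induced chaperone gene, stood at 7.64, 7.23 and 5.58. Gbp2, a guanylate-binding protein gene, stood at 6.51 and 6.14 and was not above background at 30 min (4.89), at least 2.37-fold lower. The 25 genes were all above background in both controls, and 16 were at 30 min. The median of control 2 minus control 1 was -0.36, so the lower control on this list was the one that lay nearer to 30 min. With the authors' processed values the median was -0.51.

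Markers of fibroblasts and their matrix were lower at 30 min across the whole list, in genes on which the controls nearly coincided. All 22 tested members lay below both controls, against 46.7% of tested genes, and 11 lay at least 2-fold below, against 1.21%. The median was -1.05, while the median of control 2 minus control 1 was -0.08 and no member differed by more than 0.53 between them. The summed linear level of the list was 29974 and 28295 in the controls and 11564 at 30 min. The bright Col1a2 made up the largest part of the sum in both controls, so the sum leans on that gene. Col1a1, encoding a chain of type I collagen, stood at 10.63 and 10.65 in the controls against 8.89 at 30 min, or 3.37-fold lower. Lum, encoding the collagen-binding proteoglycan lumican, stood at 9.25, 9.26 and 7.50, or 3.38-fold lower. Sparc, encoding a matrix glycoprotein, stood at 11.02, 10.97 and 9.41. The adjusted p was 0.215 for each of these 3 with limma. Col1a2, at 13.94, 13.81 and 12.46, Col5a2, at 8.51, 8.42 and 6.86, and Postn, at 10.14, 9.70 and 8.49, followed. Differences over the list ran from -1.76 to -0.50. Lox, encoding the enzyme that cross-links collagen and not on the list, was 2.86-fold lower. In whole glands, fewer cells of a type and less RNA per cell cannot be told apart. Col1a1 read 8.37 at 10 min and 8.77 at 60 min.

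Other cell types of the gland were lower by less. Of 11 tested endothelial markers, 10 lay below both controls, against 46.7% of all tested genes, and 1, the basement membrane collagen gene Col4a1 at 9.41, 9.22 and 8.20, by at least 2-fold. Their median was -0.72. Of 12 ductal markers, 10 lay below both controls, against the same 46.7%, with a median of -0.35. Scnn1b, a subunit gene of the epithelial sodium channel, was the one at least 2-fold lower, at 8.81, 8.46 and 7.41. The keratin genes Krt7 and Krt19 differed by -0.89 and -0.95. Smooth muscle and myoepithelial markers had a median of -0.66 and myeloid and mast cell markers one of -0.46, and none of either list lay 2-fold from both controls. For myeloid markers the median of control 2 minus control 1 was -0.41, close to the difference at 30 min. For smooth muscle and myoepithelial markers it was -0.32, and all 8 tested members were lower in control 2 than in control 1. Adipocyte markers had a median of -0.01. Lpl, encoding lipoprotein lipase, stood at 11.84, 11.66 and 11.10 and Cidea, a lipid droplet gene, at 8.06, 9.23 and 9.81.

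The list of saliva protein genes had a median near that of all genes. Of 24 tested members, 4 were at least 2-fold below both controls, against 1.21% of all tested genes. The median difference was -0.07, and 9 members had a control mean above 14 on a scale that ended at 15.32, where a higher level would be hard to see. Scgb1b30 and Scgb2b24, annotated as secretoglobin genes, stood at 12.10, 10.20 and 7.82 and at 10.20, 7.24 and 6.02. Spt1, encoding salivary protein 1, stood at 9.12, 11.30 and 7.96, and Slpi, encoding a protease inhibitor, at 7.43, 6.87 and 5.48. Control 2 minus control 1 was -1.91 for Scgb1b30, -2.96 for Scgb2b24 and 2.18 for Spt1, so these genes varied widely between saline rats, and the SE of their differences was 0.78, 1.19 and 0.89. Lpo, encoding lactoperoxidase, stood at 11.93, 12.00 and 12.58. Of 20 genes for acinar ion transport and exocytosis, 0 lay at least 2-fold from both controls, a count near the share over all genes (1.09% above and 1.21% below). Kcnn4, encoding a potassium channel that calcium opens, stood at 13.81, 13.85 and 13.49, and Vamp8, encoding a fusion protein of secretory granules, at 10.27, 10.61 and 10.88.

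**Figure D5:**
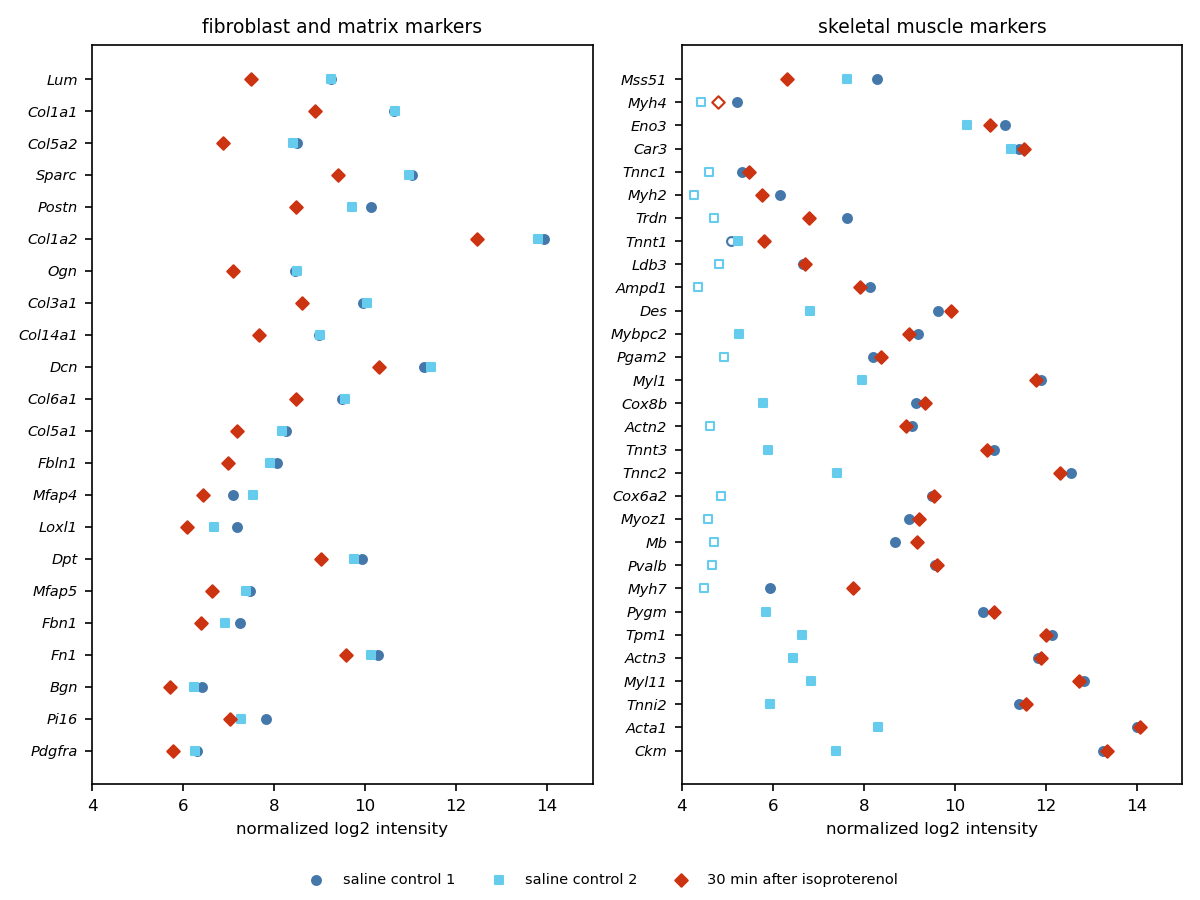
Normalized log2 intensity (x axis) of the tested fibroblast and matrix markers (left) and skeletal muscle markers (right) on the 3 arrays, ordered by the difference between 30 min and the control mean. Open symbols are not above background. All 22 matrix markers have the red diamond to the left of both controls, while 28 of 30 muscle markers have it within 2-fold of control 1.

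Skeletal muscle genes must be read against each control apart. Their median lay 0.04 from control 1 and 3.78 above control 2, and the difference of 1.99 from the control mean describes neither rat. The summed linear level of 30 tested markers was 68534 in control 1, 5312 in control 2 and 68617 at 30 min. Ckm, encoding muscle creatine kinase, stood at 13.26 and 7.39 in the controls against 13.36 at 30 min. Acta1, encoding skeletal actin, stood at 14.004, 8.32 and 14.07, and the fast muscle gene Myl11 at 12.85, 6.84 and 12.74. In each of them the 30 min level was close to control 1 and far above control 2. In control 2, 13 of the 30 markers were not above background. Of the 30, 24 were at least 2-fold lower in control 2 than in control 1. Myh7, encoding the slow myosin heavy chain, was the 1 marker at least 2-fold above both controls, at 5.95, 4.48 and 7.77. Mss51, a muscle mitochondrial gene, was the 1 as far below, at 8.28, 7.64 and 6.31. Of genes outside the list, Hjv, the hemojuvelin gene of muscle and liver, was likewise low in control 2 alone, at 10.04, 4.55 (not above background) and 9.77. Leaving out the probes of genes on this list, an alternative added after the data were seen, left 112 probes at least 2-fold above both controls and 126 below, which takes away only Myh7 and Mss51. The muscle genes Myl3 and Smpx, not on the list and named after their values were seen, remain among the higher probes.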

How the data were processed

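RNA of each gland was amplified, labelled and hybridised to Illumina bead arrays, per the labels' protocols. The authors deposited a linear intensity and a detection p-value for each probe and array, per the file headers. The intensities are headed as non-normalized, but sorted values differed between the 5 arrays by a median of 0.13%, so the deposited intensities were already close to 1 shared distribution. The scanner and normalization software are not given in the sources used here. A second deposited table holds log2 values by the authors, compressed at low levels, and served as a check.

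The function neqc of limma 3.58.1 (R 4.3.3) subtracted a background inferred from the detection p-values, added an offset of 16 and applied quantile normalization over the 5 arrays. Tested probes had a detection p under 0.01 on 1 or more of the 3 arrays. The limma fit took 30 min minus the mean of both controls, two-sided, with Benjamini-Hochberg adjustment over 10274 probes and 1 residual degree of freedom. The prior had 3.75 degrees of freedom and an SD of 0.189. The fit was also run on simulated arrays with known changes. Their noise was drawn from the fitted prior and was alike on all 3 arrays. That run therefore cannot test whether the 30 min rat varies as the controls do. The labels name a different rat for each array, and the number of arrays limits the precision. Where a gene had several probes, the brightest by mean was used. A bound of "at least N-fold" sets the bright group against the higher of the dim probe's own level and the lowest level among probes above background.

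Of 22517 probes, 13787 had 1 symbol in the platform annotation, 0 had several and 8730 had none, and 13747 Entrez IDs matched the RefSeq table (GRCr8). The members and the 33 gene lists were chosen with earlier results of these data known. Genes were named when they were among the 15 farthest above or below the nearer control, among up to 8 members of a list farthest from the control mean, any member of the AP-1, EGR, NR4A, early effector, cAMP, MAP kinase feedback, beta-adrenergic, secretory or muscle lists, among the 10 genes that differed most between the controls, or past the limma threshold under an alternative. Genes at the 2-fold limit and other exceptions were chosen after their values were seen.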

Additional observations from a re-analysis of the deposited data

How the results depend on the processing

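Probes past the limma threshold numbered 0 in the reported fit, with 2063 at an unadjusted p under 0.05. They numbered 3 with no background correction, 8 with an offset of 50, 3 with the authors' processed values and 8 with a prior variance that followed intensity. RT1-A2, Gadd45g and Ccn1 passed in each of these 4 settings, Junb and Egr1 in both settings with 8 calls, Irs2 with the offset of 50 and Rgs2 with the intensity trend. The count was 0 with median scaling, the 3 arrays normalized alone, no filter on dim probes, detection on at least 2 arrays and a robust prior. Probes at least 2-fold above both controls, 113 as reported, numbered 63 with no background correction, 68 with the offset of 50 and 65 with the authors' values, and those below, 127 as reported, numbered 36, 47 and 41. The first 2 of these settings compress differences at low levels by their construction, and for the authors' values the cause was not tested. Against a single control, the counts ranged from 228 to 729 above and from 189 to 450 below, the larger ones without control 2. Of alternatives chosen after seeing the data, leaving out the probes whose controls differed by at least 2-fold gave 94 and 123.

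List medians kept their sign under all 9 alternatives for most lists. The cAMP and CREB targets ranged from 0.53 to 1.72, early effectors from 0.59 to 1.12, NR4A and other regulators from 0.30 to 0.70, clock genes from 0.26 to 0.99, matrix markers from -1.10 to -0.90, interferon-induced genes from -0.999 to -0.49, antigen presentation genes from -0.74 to -0.30, endothelial markers from -0.83 to -0.39 and skeletal muscle markers from 0.04 to 3.78. The sign turned for AP-1 genes (-0.19 with detection on at least 2 arrays) and MAP kinase feedback genes (-0.04 with no filter), and, at medians near 0, for the adipocyte, beta-adrenergic, heat shock, insulin signalling, polyamine and reference lists. Against control 1 and control 2 alone the differences of Creb1 were 0.45 and -0.29, of Nr4a1 -0.37 and 0.21, of Pde4a 0.23 and -0.076, of Nfkbia -0.10 and 0.12, of Myl11 -0.10 and 5.90 and of Hjv -0.27 and 5.22, each turning sign. The cause was not tested. No paired analysis was possible because each array came from a different rat and the labels pair none of them. Dim probes limit the comparison: where neither control was above background, only a lower bound on the fold can be given.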

Other observations

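Few genes of general stress pathways lay at least 2-fold from both controls, which was also so of all tested genes (1.09% above and 1.21% below). Of 24 tested genes of the unfolded protein response, 1 lay that far above both controls and 0 below. It was Ppp1r15a, encoding a subunit that restarts translation, at 7.16 and 7.27 in the controls and 8.40 at 30 min. Ddit3, encoding the stress factor CHOP, stood at 8.58, 8.27 and 7.80, and Hspa5, encoding the main chaperone of the endoplasmic reticulum, at 10.79, 10.26 and 9.96. Of 12 heat shock genes, 0 lay as far from both controls, and Hspb8, a small heat shock protein gene, came nearest at 10.55, 11.11 and 12.01. Of 17 hypoxia and glycolysis genes, 1 did, Ddit4, encoding an inhibitor of mTORC1, at 8.42, 8.97 and 10.30. Ankrd37 stood at 8.03, 7.49 and 6.50.

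Genes of polyamine metabolism and ribosome biogenesis lay on both sides of the controls. Of 21 tested, Sat1, encoding the enzyme that acetylates spermidine and spermine, was the 1 at least 2-fold above, at 9.38, 9.12 and 10.58. Ncl, encoding nucleolin, was the 1 as far below, at 10.18, 9.90 and 8.82. Over all tested genes, 1.09% lay that far above and 1.21% that far below. Nop58, a ribosomal RNA processing gene, stood at 10.50, 10.19 and 9.39. Of 14 tested glucocorticoid targets, 4 (Dusp1, Ddit4, Sgk1 and Per1) lay at least 2-fold above both controls, against 1.09% of all tested genes. All 4 were already named with other lists, and the median of this list was 0.05. The 1 member as far below was Fkbp5, encoding an inhibitor of the glucocorticoid receptor, at 8.07, 7.67 and 6.65. Igfbp3, encoding an IGF binding protein, stood at 9.84, 9.56 and 8.34. Cell cycle genes had a median of -0.15, while their median of control 2 minus control 1 was -0.41. Of 12 tested, 0 lay at least 2-fold from both controls. Ccnd1, encoding cyclin D1, stood at 10.69, 9.66 and 8.89, so its controls lay farther apart than control 2 lay from the 30 min rat.

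Among probes without a gene symbol, 32 lay at least 2-fold above both controls and 38 below. A pair of them, chosen after their values were seen, passed the limma threshold under the offset of 50 and under the intensity trend. One read 8.80 and 9.31 in the saline rats and 12.76 at 30 min, and the other 10.42, 10.12 and 6.91.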
